A study of Rattus norvegicus with 18 samples.

Results

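Retina from rats fed saffron and then exposed to bright light (the SafLD group) was compared with retina from untreated control rats, gene by gene. The comparison rested on 6 of the 18 arrays in the series, the 3 arrays titled for saffron with light damage and the 3 titled control, and it was described in both directions, for genes raised and genes lowered. All animals were Sprague Dawley rats, an albino strain, aged 80 to 120 days and reared in cyclic light of 5 lux. SafLD rats were given saffron over 3 weeks, with a daily dose of 1 mg/kg, and after a night in the dark they were kept for 24 h under white fluorescent light of 1000 lux, with tissue taken when the light ended. Control rats had neither treatment and were routinely given the vegetable matrix that carried the saffron in the treated rats. In the study as a whole, the other groups received saffron alone, light alone (LD), or photobiomodulation with and without light, at 3 arrays each. The light period of the LD group carries a lower lux value in 1 of its labels than in the others. Each array carried RNA of the retina of a different animal, both sexes were used, and the sex behind an array is not given in the labels, so its part in a difference was not tested. Because SafLD differed from control in both the saffron and the light, the share of each in a difference cannot be told apart in this comparison alone. The light exposure also came with a night in the dark and individual cages, which the paper does not describe for control rats. The part of these conditions was not tested. Whole retina was measured, so fewer cells of a type and less RNA per cell cannot be told apart in any value below.

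Bright light is toxic to rod photoreceptors of albino rodents, which make up most of the cells of the retina. Under such stress, Müller cells, the radial glia that span the retina, are known to make intermediate filaments and to answer cytokines of the interleukin 6 family, which act through the shared receptor gp130, JAK kinases and the transcription factor STAT3. Cells under amino acid, oxidative or protein folding stress are known to make the transcription factor ATF4, which switches on amino acid transport, amino acid synthesis and the enzymes that load amino acids onto tRNA. Saffron stigmas carry carotenoids that are known as antioxidants.

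The values were log2 levels from RMA normalization, 1 per probe set and array, so a difference of 1 is a change of 2-fold. Array medians of the SafLD and control arrays lay between 6.12 and 6.17. Markers of the labelled tissue were bright on all of these arrays: Gnat1, the rod transducin, lay between 13.17 and 13.81, and Rlbp1, a retinoid carrier of Müller cells, between 11.54 and 11.83. Among the SafLD arrays, replicate 1 (written SafLD 1) stood nearer to control than the others. Over the 104 raised probe sets with a symbol, described below, it was the SafLD array closest to control for 81 of them, with a median difference of 1.20 against 1.51 for SafLD 2 and 1.58 for SafLD 3. It also carried more signal of neighbouring tissues by summed level, the log2 of the sum of linear levels of a list, in which the brightest genes weigh most. The summed level of 7 blood genes was 10.44 on SafLD 1 and 8.74 and 8.71 on SafLD 2 and 3. For 18 lens genes it was 15.98 against 15.47 and 15.16. The part of these in the results was not tested.

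In all, 160 probe sets were higher and 109 lower in SafLD than in control, of the 29214 tested, with an adjusted p below 0.05 (limma, Benjamini-Hochberg over all probe sets) and a fold change over 2. Together that was 0.921% of the probe sets, 0.548% higher and 0.373% lower. Without SafLD 1 the counts were 162 higher and 129 lower, and leaving out any of the other 5 arrays gave from 85 to 135 higher and from 65 to 104 lower. Probe sets with 1 gene symbol were mostly raised, at 104 higher and 23 lower, whereas those without a symbol were split, at 55 higher and 86 lower. Some probe sets without a symbol share their values on every array, and counted once for each distinct set of values they were 54 higher and 61 lower. Taken as genes, with the brightest probe set for each of 14506 symbols, 100 were higher and 22 lower, which was 0.689% and 0.152%. At any fold, 266 genes (1.83%) passed the adjusted p upward and 212 (1.46%) downward, and the words rose and fell below are used for this limit. By the methods' t-test with the same adjustment and a fold change over 2, 2 genes were higher and 2 lower. At an unadjusted p below 0.05 (limma, any fold), 1293 of the 14506 genes were higher and 1297 lower. Counts of list members at that limit below are to be read beside these. The gene lists were chosen with earlier results of these data known. Some members, such as Kif11, Hells, Chst3 and Esrrb, are among the genes the paper reports as regulated on these arrays. Counts and medians of a list are therefore not independent evidence. Of the genes that passed at any fold, 89 of the 266 and 37 of the 212 passed whichever of the 6 arrays was left out. The 3 SafLD values lay entirely above the 3 control values for 14.4% of genes and entirely below for 14.0%, so a gap between the groups is by itself common.

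**Figure D1:**
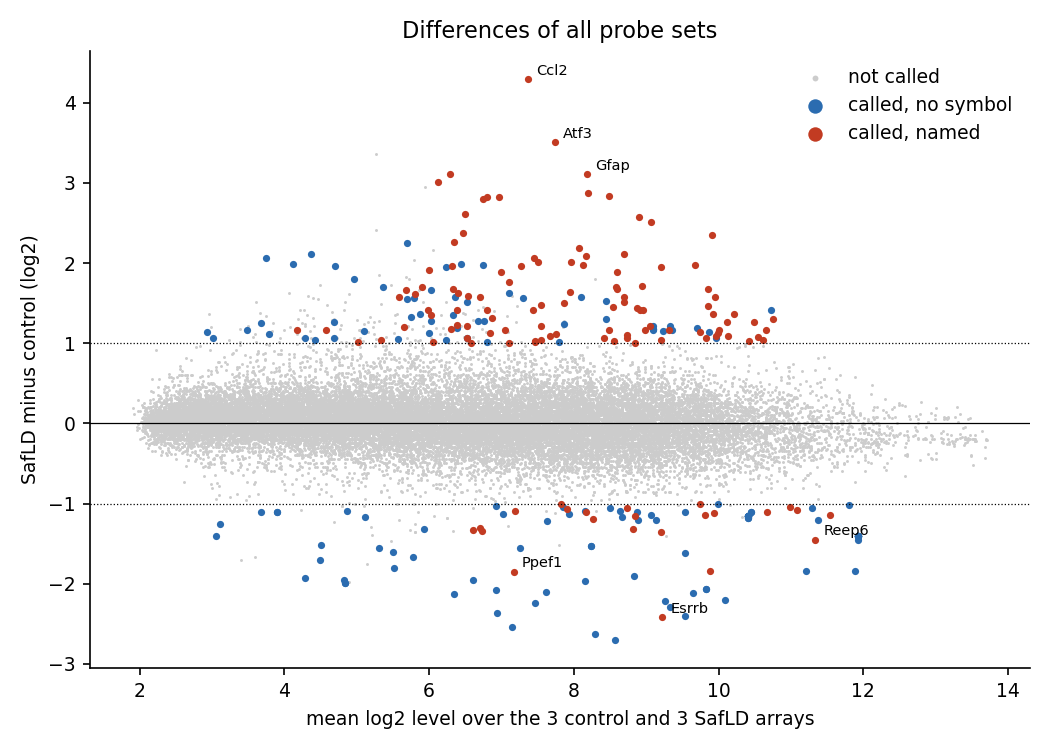
Difference between SafLD and control (log2, y axis) against the mean level over the 6 arrays (log2, x axis), 1 point for each of the 29214 probe sets; dotted lines mark a 2-fold change. The 104 raised probe sets with 1 symbol reach a log2 difference of 4.30 at Ccl2, and the lowered ones are mainly probe sets without a symbol, which reach -2.70.

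The largest increase was that of Ccl2, the chemokine that draws monocytes. Its log2 level was 5.60, 5.00 and 5.08 on the control arrays and 9.23, 9.06 and 10.27 on the SafLD arrays, a difference of 4.30 ± 0.84 (SE, adjusted p = 0.00998), or 19.6-fold. Atf3, a stress-induced transcription factor, lay at 5.86, 5.92 and 6.17 in control and at 8.88, 9.75 and 9.85 in SafLD, with SafLD 1 the lowest of the treated arrays, and rose by 3.51 ± 0.37 (adjusted p = 3.8e-05). The astrocyte and Müller cell filament gene Gfap was at 6.91, 6.23 and 6.73 in control and at 9.38, 9.85 and 9.96 in SafLD, a rise of 3.11 ± 0.27 (adjusted p = 8.0e-06) or 8.62-fold. In none of these genes did the groups overlap.

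The other 12 of the 15 largest increases among named genes that passed the test were the following. Serpina3n, a secreted protease inhibitor of reactive glia, rose by 3.11, Ccl3, another chemokine, by 3.01, and Slc25a30, a carrier of the mitochondrial inner membrane, by 2.88. The feedback inhibitors of cytokine signalling Cish and Socs3 rose by 2.84 and 2.82, Gbp2, an interferon-induced GTPase, by 2.82, and Kif11, a motor protein of the mitotic spindle, by 2.80. Next came the cytokine Lif at 2.61, Lcn2, which binds iron carriers of bacteria, at 2.51, Depdc7 at 2.38, the metallothionein Mt2A at 2.35 and Chst3, which adds sulfate to chondroitin, at 2.26. Slc25a30 was at 6.86, 6.84 and 6.56 in control and at 9.15, 9.64 and 10.11 in SafLD (adjusted p = 8.0e-06), and Kif11 at 5.30, 5.39 and 5.35 against 7.51, 8.42 and 8.52 (adjusted p = 8.2e-05). In both genes the control arrays lay close together and the SafLD arrays spread more widely, with SafLD 1 lowest. Not all of these calls stood on every array. Ccl2 and Ccl3 lost theirs without SafLD 3 (adjusted p = 0.0707 and 0.0615), and Gbp2 lost its call without SafLD 2, SafLD 3 or control 1 (up to 0.0802). Lif kept its call only without SafLD 1, and its adjusted p otherwise reached 0.119, while Lcn2 lost its call whichever of the 6 arrays was left out, up to an adjusted p of 0.18.

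**Figure D2:**
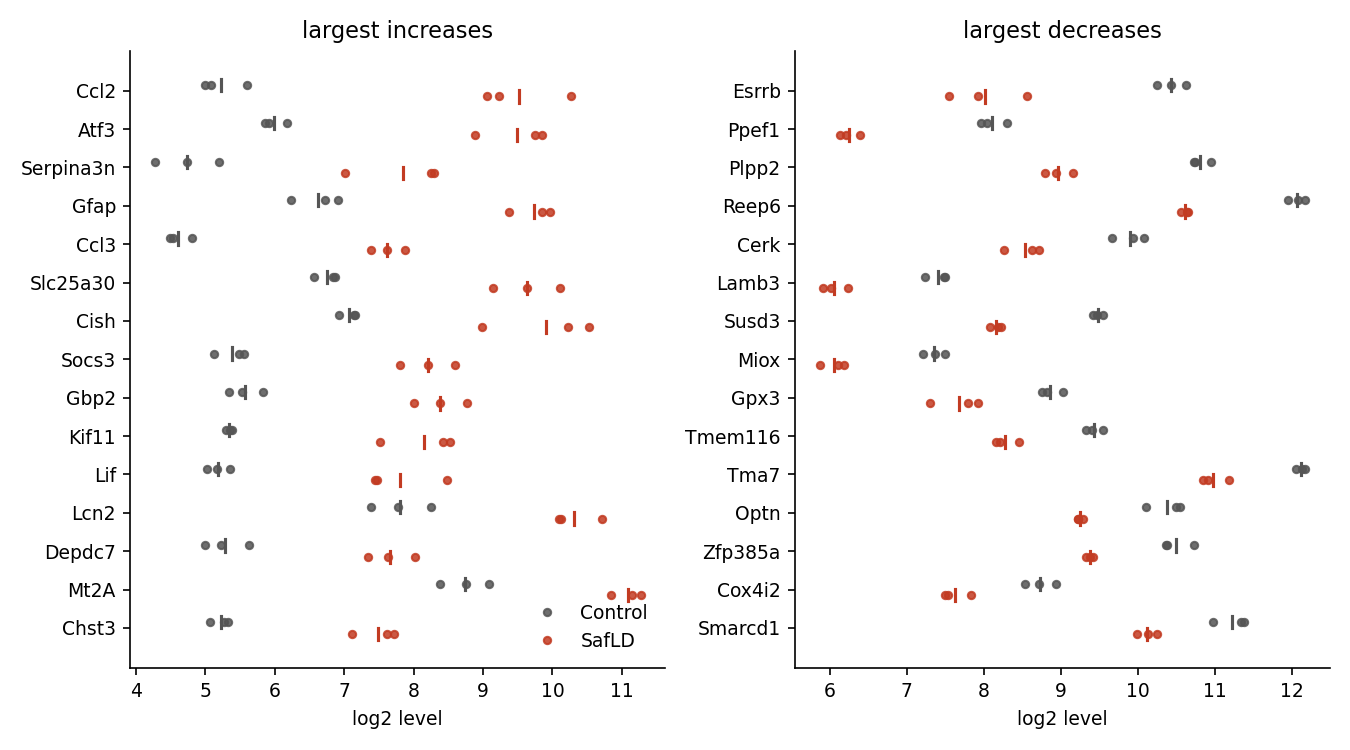
Log2 level (x axis) of the 15 largest increases (left) and 15 largest decreases (right) among named genes that passed the test, all with groups that did not overlap; each point is 1 array, grey for control and red for SafLD, and each bar is the mean of 3 arrays. Treated arrays spread widely in the raised genes, as in Cish at 8.98, 10.23 and 10.52, and closely in many of the lowered ones, as in Reep6 at 10.63, 10.65 and 10.56.

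Of 24 chemokines and cytokines on the array, 4 rose and 1 fell, 3 of them by more than 2-fold, and the median difference of the list was 0.59 beside 0.01 over all genes. The 15 members with SafLD entirely above control compare with the 14.4% of genes given above. Besides Ccl2 and Ccl3, the macrophage chemokine Ccl4 rose by 1.61 ± 0.26 (adjusted p = 0.00218), from 4.95, 4.72 and 5.34 to 6.65, 6.60 and 6.60. Tnf, the tumour necrosis factor gene, rose by 0.76 ± 0.18 (adjusted p = 0.0346). The interferon-induced chemokine Cxcl10 stood at 4.50, 4.60 and 4.31 in control and at 6.50, 7.92 and 7.85 in SafLD. Its difference of 2.95 ± 0.89 was among the largest on the array but did not pass the test (adjusted p = 0.0891). Il12a, a subunit of interleukin 12, fell by 1.00 ± 0.18 (adjusted p = 0.00677), and Cxcl13 and Cxcl12, chemokines of lymphoid tissue, differed by -0.44 and -0.37 with overlapping groups. Of the 4 increases, Ccl4 alone passed whichever array was left out. Markers of cells that such chemokines attract were followed beside them. Of 18 microglia and macrophage genes none rose or fell (limma, 1 higher and 3 lower at an unadjusted p below 0.05), and the median difference was -0.03. Their summed level, weighted to the brightest genes, ran from 10.22 to 10.49 in control and from 10.24 to 10.39 in SafLD. The members furthest from 0 were the microglial receptor gene P2ry12 at -0.69 ± 0.24, the complement gene C1qb at -0.44 and Cd14, a receptor of myeloid cells, at 0.72 ± 0.28, none passing the test.

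Of 21 genes of gp130 signalling, its ligands and receptors included, 7 rose, 6 by more than 2-fold, and none fell (1 was lower at an unadjusted p below 0.05), with a median of 0.45. Among ligands, Lif, an interleukin 6 family cytokine, was at 5.02, 5.17 and 5.36 in control and at 7.44, 7.47 and 8.48 in SafLD. Among receptors, Osmr, the oncostatin M receptor, rose by 1.92 ± 0.38 (adjusted p = 0.0101), and Il6st, which encodes gp130 itself, rose by 1.04 ± 0.20 (adjusted p = 0.00861) from 10.19, 10.37 and 9.76 to 10.74, 11.28 and 11.40. Cntfr, the receptor for ciliary neurotrophic factor, differed the other way by -0.56 ± 0.15, short of the test (adjusted p = 0.0584). Jak2, the kinase attached to these receptors, rose by 0.50 ± 0.12 (adjusted p = 0.0388). Stat3 was at 8.73, 8.78 and 8.56 in control and at 10.29, 10.80 and 10.92 in SafLD, with no overlap, and rose by 1.98 ± 0.18 (adjusted p = 1.2e-05). Its target and inhibitor Socs3 went from 5.49, 5.13 and 5.55 to 7.80, 8.21 and 8.60 (adjusted p = 1.3e-04). Stat3, Socs3 and Cish kept their calls whichever array was left out. Il6st lost its call without SafLD 2, SafLD 3 or control 3 (adjusted p up to 0.067), and Osmr without SafLD 3 or control 1 (up to 0.0582).

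The promoter of Cish, the strongest riser of the pathway, was read from the RefSeq promoter table (build GRCr8), because STAT proteins bind the letters TTCNNNGAA. These letters, searched on both strands of the 300 bases from 250 before to 50 after the annotated start, occurred in 9.39% of the 27457 promoters of the table, in 13 of the 84 promoters of genes called higher and in 2 of the 15 promoters of the gp130 list. In Cish they occurred 4 times, starting 241, 230, 136 and 119 bases before the start. The stretch from 250 to 101 bases before the start, chr8:116850719-116850868 on the plus strand, is given with the matches in capitals.
Cish: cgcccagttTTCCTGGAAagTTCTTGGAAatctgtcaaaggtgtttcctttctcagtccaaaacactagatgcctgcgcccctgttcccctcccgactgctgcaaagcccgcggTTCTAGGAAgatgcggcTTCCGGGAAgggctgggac
These letters are a description of the sequence, and whether a factor was bound there was not measured.

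Genes of the NF-kB pathway and its adhesion targets included 6 of 16 that rose and 1 that fell, with a median of 0.68. Tnip2, which binds the NF-kB inhibitor A20, rose by 2.01 ± 0.18 (adjusted p = 1.3e-05), from 6.35, 6.81 and 6.37 to 8.25, 8.63 and 8.68. The leukocyte adhesion molecules Icam1 and Sele rose by 1.76 ± 0.29 (adjusted p = 0.0028) and by 1.20 ± 0.26 (adjusted p = 0.0206). Birc3, an inhibitor of cell death, rose by 1.17, Nfkbiz by 0.89 and the NF-kB subunit gene Nfkb1 by 0.81, all 3 failing the test on leaving out some arrays. Tnip1, the paralog of Tnip2, went the opposite way, from 8.74, 8.69 and 8.70 to 7.61, 8.22 and 7.63, a fall of 0.89 ± 0.18 (adjusted p = 0.0104, and 0.077 without SafLD 3). The inhibitor gene Nfkbib differed by -0.36 ± 0.13 (adjusted p = 0.156). Sele and Birc3 kept their calls only without SafLD 1, with adjusted p up to 0.121 and 0.168. Tnip2 and Icam1 passed whichever array was left out.

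Interferon response genes had a raised median of 0.61, and 19 of 25 had SafLD entirely above control, yet only 2 of them rose by the test and none fell (limma, 12 higher and 0 lower at an unadjusted p below 0.05). Gbp2 lay at 5.53, 5.34 and 5.83 in control and at 8.01, 8.38 and 8.77 in SafLD (2.82 ± 0.58, adjusted p = 0.0131). Irf9, a subunit of the factor that carries the interferon signal to the nucleus, lay at 7.12, 7.35 and 6.91 against 8.82, 9.27 and 9.22 (1.98 ± 0.23, adjusted p = 7.3e-05) and kept its call whichever array was left out. Rsad2, an antiviral enzyme, and Gbp5 differed by 2.16 ± 0.66 and 2.04 ± 0.64 but did not pass (adjusted p = 0.0963 and 0.104). Rsad2 was at 6.02 on SafLD 1 and at 7.72 and 7.67 on SafLD 2 and 3, against 4.87 to 5.08 in control. The lowest difference in the list was -0.10.

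The letters GAAA, any 2 further letters and GAAA again, which interferon regulatory factors bind, were found on either strand in 4.12% of all promoters of the table, in 5 of the 84 promoters of genes called higher, and in 12 of the 19 promoters of the interferon list. In Gbp2 they lie on the strand opposite to the gene, from 31 bases before the start. The 150 bases before the start, chr2:234005577-234005726 on the plus strand (GRCr8), are shown with the match in capitals.
Gbp2: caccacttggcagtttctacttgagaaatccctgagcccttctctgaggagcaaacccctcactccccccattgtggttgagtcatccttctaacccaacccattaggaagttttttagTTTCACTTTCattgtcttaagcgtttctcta

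Of 15 genes of antigen presentation, 3 rose and none fell (0 also at an unadjusted p below 0.05), and the median was 0.16, with array medians of 0.37, -0.05 and 0.04 on SafLD 1, 2 and 3. Tap1, the transporter that feeds peptides to class I molecules, rose by 1.18 ± 0.30 (adjusted p = 0.0468). The trimming peptidase Erap1 and the class II chain RT1-Bb rose by 0.72 and 0.59 (adjusted p = 0.0279 and 0.0308). Tapbp, Psme1 and the class II regulator Ciita differed by -0.34, -0.32 and -0.17 without passing the test. None of the 3 increases passed whichever array was left out, and Tap1 kept its call only without control 3. Among 8 complement genes, Cd46, which protects cells from complement, rose by 0.95 ± 0.17 (adjusted p = 0.00622) and passed whichever array was left out. The complement proteases and inhibitor C1s, Serping1 and Cd55 differed by 1.00, 0.42 and 0.28 without passing, the median of the 8 was 0.32, and none fell (0 also at an unadjusted p below 0.05).

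Immediate early genes, which cells switch on within minutes of a stimulus, counted 7 of 26 that rose, 6 by more than 2-fold, and none that fell (1 at an unadjusted p below 0.05), with a median of 0.51. Jun, a subunit of the factor AP-1, lay at 7.81, 7.77 and 7.34 in control and at 9.62, 9.78 and 9.85 in SafLD, a rise of 2.11 ± 0.17 (adjusted p = 3.8e-06). The AP-1 genes Junb and Fosl1 rose by 2.01 ± 0.29 and 1.96 ± 0.33, and the zinc finger gene Egr1 by 1.89 ± 0.25 (adjusted p = 7.4e-04, 0.0032 and 3.5e-04). Zfp36, which destabilises cytokine mRNA, rose by 1.97 ± 0.42 (adjusted p = 0.0183, up to 0.0948 without SafLD 2, SafLD 3, control 2 or control 3), and Fos by 0.96 ± 0.24 (adjusted p = 0.0385). Fos was at 7.01, 6.63 and 6.90 against 7.50, 7.84 and 8.07, a smaller difference than that of Jun. Jund and the phosphatase gene Dusp1 differed by -0.12 ± 0.12 and -0.34 ± 0.12, without passing the test. The 5 increases other than Zfp36 and Fos passed whichever array was left out. The AP-1 letters TGANTCA, in 8.04% of all promoters of the table, were in 0 of the 17 promoters found for the list.

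Of 22 glial reactivity genes, 11 rose, 9 by more than 2-fold, and none fell (0 also at an unadjusted p below 0.05), with a median of 0.92. Beyond Serpina3n, Gfap and Lcn2, these included Fgf2, a survival factor for photoreceptors, at 6.22, 6.12 and 5.81 in control and 7.06, 8.41 and 8.36 in SafLD (1.89 ± 0.37, adjusted p = 0.00998). SafLD 1 stood more than 1 unit below the other treated arrays, and the call was lost without SafLD 2, SafLD 3 or control 3 (adjusted p up to 0.0737). The copper-carrying ferroxidase Cp and the membrane protein Pdpn each rose by 1.37, Edn2, a peptide that stressed photoreceptors are known to send to Müller cells, by 1.23 ± 0.20 (adjusted p = 0.00252), the transcription factor Cebpd by 1.21 and the secreted Chi3l1 by 1.16. A2m, a protease inhibitor, rose by 0.97 and the hyaluronan receptor Cd44 by 0.86. Pdpn and Chi3l1 kept their calls only without SafLD 1, with adjusted p up to 0.156 and 0.16. The lowest difference in the list was -0.26. Of the 11, 6 passed whichever array was left out.

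Genes of the everyday work of Müller cells were counted apart from these. Of 16 measured, none rose (limma, 0 also at an unadjusted p below 0.05) and 1 fell, with a median of -0.05. That gene was Car14, a membrane carbonic anhydrase, which went from 10.59, 10.43 and 10.40 to 10.04, 9.65 and 9.48 (-0.75 ± 0.19, adjusted p = 0.0433) and did not pass without 5 of the 6 arrays. The highest difference was that of Clu, a secreted chaperone, at 0.19 ± 0.14, which did not pass. Id3 and the transcription factor Sox2 differed by -0.45 ± 0.16 and -0.24 ± 0.14 without passing the test. The summed level of the 16 genes, weighted to the brightest, ran from 14.40 to 14.48 in control and from 14.32 to 14.43 in SafLD, which overlap.

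Matrix remodelling genes counted 5 of 23 that rose and 1 that fell, with a median of 0.40. The chondroitin enzymes had the smallest adjusted p of the list: Chst3 went from 5.33, 5.07 and 5.27 to 7.11, 7.72 and 7.61 (2.26 ± 0.21, adjusted p = 1.3e-05), and Chsy1, which builds the chondroitin chain, from 9.54, 9.47 and 9.46 to 10.49, 10.82 and 10.94 (1.26 ± 0.13, adjusted p = 3.2e-05). The proteases that cut chondroitin-bearing proteoglycans, Adamts1 and Adamts4, rose by 1.41 ± 0.22 and 1.13 ± 0.25 (adjusted p = 0.00143 and 0.023), and the plasminogen activator Plat by 0.98 ± 0.17 (adjusted p = 0.00337). Mmp3, a matrix metalloproteinase, differed by 2.41 ± 0.67, from 4.21, 3.97 and 3.99 to 6.24, 6.26 and 6.91, without passing the test (adjusted p = 0.0617). Lamb3, a laminin chain, fell by 1.34 ± 0.19 (adjusted p = 6.7e-04). Pxdn, a matrix peroxidase, and the protease inhibitor Timp2 differed by -1.08 ± 0.36 and -0.45 ± 0.19. Leaving out SafLD 2, SafLD 3, control 2 or control 3 took the call from Adamts4 (adjusted p up to 0.119), and the 5 other changes passed throughout.

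The list of the ATF4 pathway and amino acid supply was raised in many of its enzymes and carriers. Of 34 genes measured, 12 rose, 9 by more than 2-fold, and none fell (none also at an unadjusted p below 0.05), with a median of 0.39. Mthfd2, the mitochondrial folate enzyme, rose by 2.09 ± 0.14 and Asns, asparagine synthetase, by 1.95 ± 0.13, both with an adjusted p of 4.9e-07. Mthfd2 was at 7.05, 7.08 and 7.24 in control and at 9.22, 9.13 and 9.30 in SafLD, and Asns at 8.23 ± 0.21 (mean and SD of 3 arrays) against 10.08, 10.21 and 10.24. The spread within each group was under 0.5, and SafLD 1 lay with the other treated arrays. Amino acid carriers that rose were Slc1a4 (1.64), Slc7a1 (1.41), Slc38a2 (1.16) and the cystine carrier Slc7a11 (1.17, adjusted p = 0.0439, lost whichever array was left out). Aldh18a1, of proline synthesis, rose by 1.44 and the alanine enzyme Gpt2 by 0.88. The secreted stress cytokine Gdf15 and the pseudokinase Trib3 rose by 1.59 and 1.58, Cebpg, a dimer partner of ATF4, by 0.83 and the lipoprotein receptor Vldlr by 0.82. Atf4 itself differed by 0.30 ± 0.13 (adjusted p = 0.264), and the stress factor Ddit3, the serine enzyme Phgdh and the cysteine enzyme Cth by -0.32 ± 0.23, -0.25 ± 0.22 and -0.25 ± 0.18, with overlapping groups. Of the 12 increases, 9 passed whichever array was left out.

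Cytosolic aminoacyl-tRNA synthetases divided by size of response. Of 19 measured, 10 rose, 6 by more than 2-fold, none fell (0 also at an unadjusted p below 0.05), and the median was 0.52. Tars1, for threonine, was at 8.38, 8.39 and 8.56 in control and at 9.58, 9.61 and 9.78 in SafLD (1.22 ± 0.12, adjusted p = 1.9e-05). Those for cysteine (Cars1, 1.16), methionine (Mars1, 1.14), isoleucine (Iars1, 1.09), alanine (Aars1, 1.08) and leucine (Lars1, 1.06) followed, and those for tyrosine (Yars1, 0.84), glutamate and proline (Eprs1, 0.71), glycine (Gars1, 0.55) and asparagine (Nars1, 0.52) rose by less than 2-fold. At the other end, Wars1, for tryptophan, differed by -0.38 ± 0.19 without passing the test, and the other 8 that did not rise lay between -0.15 and 0.38. Aars1 lost its 2-fold call without SafLD 2, SafLD 3, control 1 or control 3 (adjusted p up to 0.0959), and Iars1, at an adjusted p of at most 0.027, without SafLD 2 or control 3. Of the 10, 7 passed at any fold whichever array was left out. Of 11 mitochondrial synthetases none rose or fell (limma, 4 higher and 0 lower at an unadjusted p below 0.05). Their median was 0.28, with Yars2, Nars2 and Hars2 at 0.45, 0.41 and 0.39 and Sars2 at -0.14.

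Promoters of these enzymes were searched for TGATGNAA, the core of the element that ATF4 binds with C/EBP proteins, on both strands of the same 300-base window. It was present in 4.16% of all promoters of the table and in 3.07% of those of the genes measured. Of the 17 cytosolic synthetases whose promoter was matched, 7 held it, and these 7 were all among the 9 that rose, while 0 of the 8 that did not rise held it. In the ATF4 list it was found in 3 of 11 promoters of genes that rose and in 4 of 19 of the others. Mthfd2 and Asns, with the largest increases of that list at 2.09 and 1.95, had no match. Whether ATF4 was bound at any of these promoters was not measured. The 150 bases before the start are printed for 3 synthetases and, for comparison, for Trib3 and Slc7a1 of the ATF4 list, with matches in capitals. The coordinates (GRCr8) are chr2:62114803-62114952 for Tars1, chr7:65023754-65023903 for Mars1, chr17:15193653-15193802 for Iars1 and chr3:161275534-161275683 for Trib3, all on the minus strand, and chr12:11664338-11664487 on the plus strand for Slc7a1.
Tars1: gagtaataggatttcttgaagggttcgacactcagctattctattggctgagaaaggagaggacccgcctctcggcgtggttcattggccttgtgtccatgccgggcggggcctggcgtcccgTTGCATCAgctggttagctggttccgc
Mars1: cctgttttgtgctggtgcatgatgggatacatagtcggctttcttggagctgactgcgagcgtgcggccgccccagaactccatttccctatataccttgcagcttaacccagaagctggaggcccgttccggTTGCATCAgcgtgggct
Iars1: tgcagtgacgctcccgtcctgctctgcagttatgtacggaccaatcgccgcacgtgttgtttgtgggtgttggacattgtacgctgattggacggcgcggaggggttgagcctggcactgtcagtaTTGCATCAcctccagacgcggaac
Trib3: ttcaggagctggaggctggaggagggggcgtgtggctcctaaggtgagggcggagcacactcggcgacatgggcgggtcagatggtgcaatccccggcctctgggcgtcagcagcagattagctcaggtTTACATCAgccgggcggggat
Slc7a1: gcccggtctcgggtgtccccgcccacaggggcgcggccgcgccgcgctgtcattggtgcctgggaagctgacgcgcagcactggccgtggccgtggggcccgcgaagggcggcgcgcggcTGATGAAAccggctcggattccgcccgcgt
The matches began 27, 17, 24, 21 and 30 bases before the start, in that order. Tars1, Mars1 and Iars1 share the same 8 letters, on the strand opposite to the gene.

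**Figure D3:**
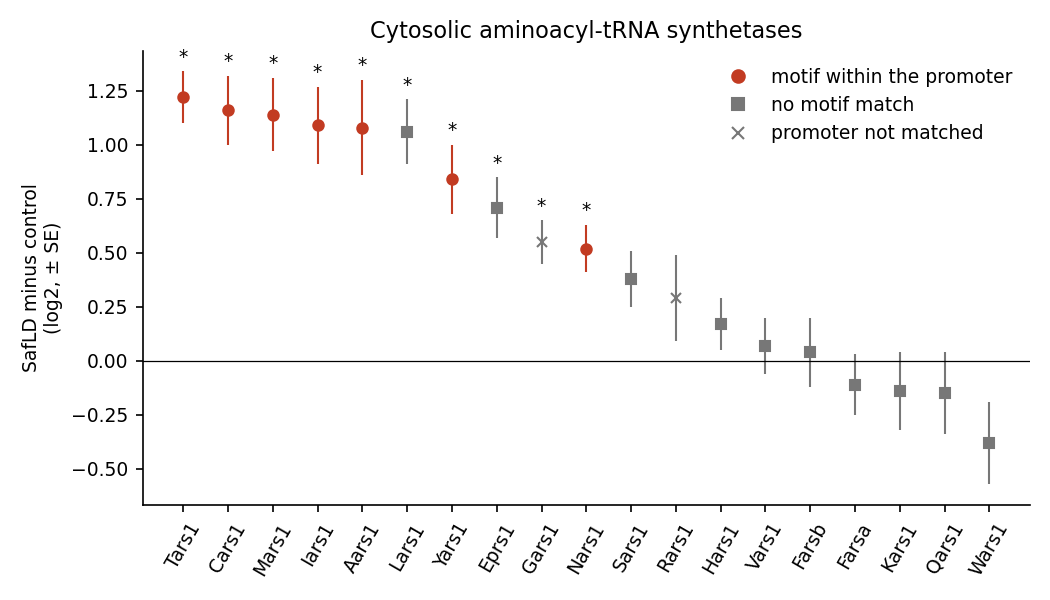
Difference between SafLD and control (log2, ± SE) for the 19 cytosolic aminoacyl-tRNA synthetases measured, ordered by size; stars mark an adjusted p below 0.05, red circles a TGATGNAA match in the promoter, grey squares no match and crosses a promoter not matched. The 7 circles lie between 0.52 and 1.22, and the squares of the 8 that did not rise lie between -0.38 and 0.38.

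Antioxidant genes did not move as a group. Of 33 measured, 3 rose and 2 fell, and the median was -0.13. The metal-binding metallothioneins Mt2A and Mt1 rose by 2.35 ± 0.40 and 1.58 ± 0.35 (adjusted p = 0.00348 and 0.0212), Mt2A from 8.75, 8.38 and 9.08 to 11.15, 10.84 and 11.27. Hmox1, the inducible heme oxygenase, went from 4.77, 4.55 and 5.04 to 5.68, 6.62 and 6.81 (1.58 ± 0.38, adjusted p = 0.0345), with SafLD 1 lowest, and kept its call only without SafLD 1 (otherwise up to 0.167). Its constitutive relative Hmox2 fell by 0.57 ± 0.12 (adjusted p = 0.0128). Gpx3, a secreted glutathione peroxidase, fell by 1.19 ± 0.20 (adjusted p = 0.00337), from 8.75, 8.82 and 9.02 to 7.93, 7.79 and 7.30, and kept its call whichever array was left out. Txnip, which binds thioredoxin, differed by -0.73 ± 0.25 without passing (adjusted p = 0.138). Mt1 lost its call without SafLD 1, SafLD 3, control 1 or control 2 (up to 0.102). Among 20 heat shock proteins and chaperones, the mitochondrial Hspa9 rose by 0.70 ± 0.13 (adjusted p = 0.00617) and Dnajb1 by 0.49 ± 0.13 (adjusted p = 0.0451), with a median of 0.16 and none that fell (1 at an unadjusted p below 0.05). Hsph1 and Hspb1 differed by 0.64 ± 0.17 and 0.64 ± 0.49 and Hspb8 by -0.58 ± 0.25, without passing.

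The largest decrease of a named gene was that of Esrrb, a nuclear receptor of rods. It lay at 10.62, 10.43 and 10.24 in control and at 7.55, 7.92 and 8.56 in SafLD, a fall of 2.42 ± 0.33 (adjusted p = 4.7e-04), and the treated arrays were more spread than the controls. Ppef1, a phosphatase with calcium-binding motifs made in photoreceptors, fell by 1.85 ± 0.27 (adjusted p = 7.2e-04) from 7.96, 8.04 and 8.30 to 6.13, 6.21 and 6.40. Plpp2, a lipid phosphatase, went from 10.74, 10.73 and 10.94 to 9.16, 8.94 and 8.79, a fall of 1.84 ± 0.25 (adjusted p = 4.9e-04). Reep6, which shapes the endoplasmic reticulum of rods, fell by 1.45 ± 0.24 (adjusted p = 0.00307), from 12.16, 12.07 and 11.95 to 10.63, 10.65 and 10.56. Groups did not overlap in any of these genes, and all 4 kept their calls whichever array was left out. The other 11 of the 15 largest decreases among named genes that passed the test were Cerk, ceramide kinase (-1.36), Lamb3 (-1.34), Susd3 (-1.32), Miox, which breaks down inositol (-1.30), Gpx3 (-1.19), Tmem116 (-1.15), the small ribosome-associated protein gene Tma7 (-1.14), the autophagy receptor gene Optn (-1.14), the zinc finger gene Zfp385a (-1.12), Cox4i2, a subunit of cytochrome c oxidase (-1.10), and Smarcd1, of the SWI/SNF chromatin complex (-1.10). Cox4i2 lost its call without SafLD 2, SafLD 3, control 1 or control 3 (adjusted p up to 0.0733), and Zfp385a without control 1, where its fold change fell below 2.

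In the list of photoreceptor structure and transcription, 4 of 18 genes fell, 3 rose and the median was -0.42. Besides Esrrb, Ppef1 and Reep6, the transcription factor Mef2d fell by 0.79 ± 0.16 (adjusted p = 0.0109). In the opposite direction, Fscn2, an actin bundling protein of outer segments, rose by 1.03 ± 0.14 (adjusted p = 4.7e-04), from 9.90, 9.86 and 9.94 to 10.72, 10.90 and 11.17. Prom1, of the outer segment discs, rose by 0.81 ± 0.15 (adjusted p = 0.00861), and the transcription factor Neurod1 by 0.52 ± 0.14 (adjusted p = 0.05 as rounded, just under the limit). Nrl, the factor that sets rod identity, differed by -0.94 ± 0.26 without passing (adjusted p = 0.0594), at 11.78, 11.97 and 11.78 against 10.98, 10.94 and 10.80. Fscn2 fell below 2-fold without SafLD 3. Of the 4 decreases 3, and of the 3 increases 1, passed whichever array was left out.

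Rod phototransduction genes fell by less. Of 18 measured, 4 fell and none rose (0 also at an unadjusted p below 0.05), with a median of -0.20. The calcium sensor Rcvrn fell by 0.66 ± 0.12 (adjusted p = 0.00425), from 12.89, 12.89 and 12.93 to 12.27, 12.26 and 12.18. Pdc, which binds transducin, and the transducin subunits Gnat1 and Gngt1 fell by 0.58, 0.52 and 0.46 (adjusted p = 0.0317, 0.0497 and 0.0476). Cngb1 and Slc24a1, the channel and the exchanger of the outer segment membrane, differed by -0.77 ± 0.21 and -0.76 ± 0.31 without passing (adjusted p = 0.0546 and 0.225). Gucy2d, a guanylate cyclase, differed by 0.29 ± 0.24, and arrestin, Sag, was between 13.20 and 13.36 in control and between 13.29 and 13.36 in SafLD. The summed level of the 18 genes, weighted to the brightest, was 16.62, 16.70 and 16.63 in control and 16.35, 16.44 and 16.38 in SafLD, which do not overlap. Rcvrn alone passed whichever array was left out.

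Among 13 cone genes, Pde6h, the inhibitory subunit of the cone phosphodiesterase, fell by 0.92 ± 0.14 (adjusted p = 0.00151), from 9.17, 9.32 and 9.46 to 8.46, 8.41 and 8.30, and the cone opsin Opn1mw by 0.65 ± 0.15 (adjusted p = 0.0234). None rose (1 at an unadjusted p below 0.05), and the median was -0.39. Gngt2 differed by -0.63 ± 0.24 and Pde6c by 0.43 ± 0.13 without passing (adjusted p = 0.179 and 0.0978). Of 14 bipolar cell genes, Gng13, Pcp2 and Isl1 fell by 1.05 ± 0.24, 0.69 ± 0.14 and 0.60 ± 0.14 (adjusted p = 0.0243, 0.0131 and 0.0263), none rose (0 also at an unadjusted p below 0.05), and the median was -0.10. The bipolar array medians were -0.31 on SafLD 1 and 0.11 and 0.02 on SafLD 2 and 3. Of 16 amacrine and horizontal cell genes, the neuropeptide Sst and the calcium-binding Calb2 fell by 0.64 and 0.51 (adjusted p = 0.0471 and 0.0439). None rose (1 at an unadjusted p below 0.05), the median was -0.25, and Th, which makes dopamine, and Calb1 differed by 0.54 and -0.53 without passing. Ganglion cell markers had the lowest median of the lists, -0.47, and 3 of 14 fell: Thy1 by 0.82 ± 0.19, Sncg by 0.80 ± 0.21 and Stmn2 by 0.63 ± 0.15 (adjusted p = 0.031, 0.0473 and 0.0291). Thy1 lay at 10.98, 10.80 and 10.78 in control and at 9.92, 10.11 and 10.08 in SafLD. Tubb3 differed by -0.78 ± 0.21 (adjusted p = 0.0559), Pou4f1 by -0.25 ± 0.19 and Gap43, of growing axons, by -0.23 ± 0.18, and none rose (0 also at an unadjusted p below 0.05). No decrease in these 4 lists other than that of Pde6h passed whichever array was left out, and Gng13 lost its call without SafLD 2, SafLD 3, control 1 or control 3 (adjusted p up to 0.134).

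Few genes of energy metabolism passed the test. Of 26 subunits of cytochrome c oxidase and ATP synthase, Cox4i2 and Atp5mg fell, by 1.10 ± 0.22 and 0.93 ± 0.24 (adjusted p = 0.0129 and 0.0462), none rose (0 also at an unadjusted p below 0.05), and the median was -0.30. Cox7b differed by -0.69 ± 0.29 and Cox6a2 by 0.20 ± 0.18. Of 32 NADH dehydrogenase genes, Ndufs8, Ndufb10 and Ndufb7 fell by 0.74, 0.73 and 0.70 (adjusted p = 0.0428, 0.0426 and 0.0494), none rose (0 also at an unadjusted p below 0.05), and the median was -0.24, while Ndufb6 differed by -0.82 ± 0.24 (adjusted p = 0.0761). SafLD 1 was nearest to control, with list medians of -0.09 and -0.06 against the control mean, where SafLD 2 gave -0.39 and -0.27 and SafLD 3 gave -0.42 and -0.37. Control 3 stood above the other controls in both lists. The mean level of the oxidase and synthase genes was 9.85, 9.84 and 10.19 in control and 9.82, 9.56 and 9.51 in SafLD. That of the NADH dehydrogenase genes was 9.50, 9.53 and 9.93 against 9.58, 9.31 and 9.22. None of these 5 decreases passed whichever array was left out. Of 23 glycolysis genes none rose or fell (0 higher and 10 lower at an unadjusted p below 0.05), with a median of -0.26 and 14 of 23 with SafLD entirely below control, beside the 14.0% of all genes. Hk2, a hexokinase, differed by -1.17 ± 0.41, Pfkl by -0.53 ± 0.21 and Pkm by -0.45 ± 0.13 (adjusted p = 0.143, 0.207 and 0.082), and Pfkfb3 by 0.34 ± 0.16.

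Lipid genes moved in both directions. Of 23 genes of fatty acid handling, 2 rose and 2 fell, with a median of 0.02. Crot, a peroxisomal carnitine transferase, rose by 1.27 ± 0.14 (adjusted p = 3.9e-05), from 9.74, 9.82 and 10.01 to 10.96, 11.10 and 11.30, and glycerol kinase, Gk, by 1.11 ± 0.19 (adjusted p = 0.00343), both whichever array was left out. Fabp3, a fatty acid carrier, and Acadm, of mitochondrial oxidation, fell by 0.83 and 0.47 (adjusted p = 0.049 and 0.045) and did not pass without most of the arrays. Fabp12 and Angptl4 differed by -1.09 ± 0.30 and 0.61 ± 0.28 without passing. Of 18 sterol synthesis genes none rose or fell (1 higher and 2 lower at an unadjusted p below 0.05), the median was -0.04 and differences ran from -0.44 at Fdps to 0.37 at Lss.

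Of 15 genes of the circadian clock 3 fell and none rose (0 also at an unadjusted p below 0.05), with a median of -0.10. Bhlhe41 fell by 0.69 ± 0.15, Dbp by 0.56 ± 0.13 and Tef by 0.52 ± 0.13 (adjusted p = 0.0192, 0.0249 and 0.0474), while Clock differed by 0.18 ± 0.16. Dbp lay at 10.96 ± 0.03 (mean and SD of 3 arrays) in control and at 10.38, 10.53 and 10.30 in SafLD. None of these 3 passed whichever array was left out. Of 20 cell division genes 2 rose and none fell (0 also at an unadjusted p below 0.05), Kif11 and the chromatin helicase gene Hells, the latter by 1.16 ± 0.21 (adjusted p = 0.00659), from 7.75, 7.87 and 8.09 to 9.02, 8.91 and 9.24. Both passed whichever array was left out. Top2a differed by 0.58 ± 0.16 (adjusted p = 0.0668) and Plk1 by -0.38 ± 0.19, and the median was 0.09. Of 22 cell death genes 3 rose, at less than 2-fold: Mcl1, which keeps cells alive, by 0.99 ± 0.13 (adjusted p = 3.5e-04), the kinase gene Ripk1 by 0.91 ± 0.19 (adjusted p = 0.0174) and the inflammatory caspase gene Casp4 by 0.86 ± 0.22 (adjusted p = 0.0476). None fell (1 at an unadjusted p below 0.05), Mcl1 alone passed whichever array was left out, the median was 0.12, and the death receptors Tnfrsf1a and Fas differed by 1.01 ± 0.36 and 0.98 ± 0.41 without passing, as did the survival gene Bcl2l1 by -0.48 ± 0.19.

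Genes that the study also assayed by RT-PCR had been picked from these arrays, so their direction here is not independent evidence. Of the 13, 8 rose and 4 fell, all by more than 2-fold. Ccl2, Gfap, Socs3, Stat3, Fgf2, Hmox1, Crot and Edn2, which rose, and Gpx3, which fell, were described above. Agt, angiotensinogen, went from 7.77, 7.55 and 7.87 to 6.70, 6.79 and 6.45 (-1.09 ± 0.15, adjusted p = 5.1e-04), Optn from 10.49, 10.54 and 10.10 to 9.22, 9.28 and 9.22 (adjusted p = 3.8e-05), and Smarcd1 from 11.33, 11.37 and 10.97 to 9.99, 10.24 and 10.13 (adjusted p = 9.6e-04). Agt fell below 2-fold without SafLD 3. The remaining gene, Fabp5, was at 6.89, 6.98 and 7.14 in control and at 6.91, 6.88 and 6.57 in SafLD (-0.22 ± 0.48, adjusted p = 0.876).

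**Figure D4:**
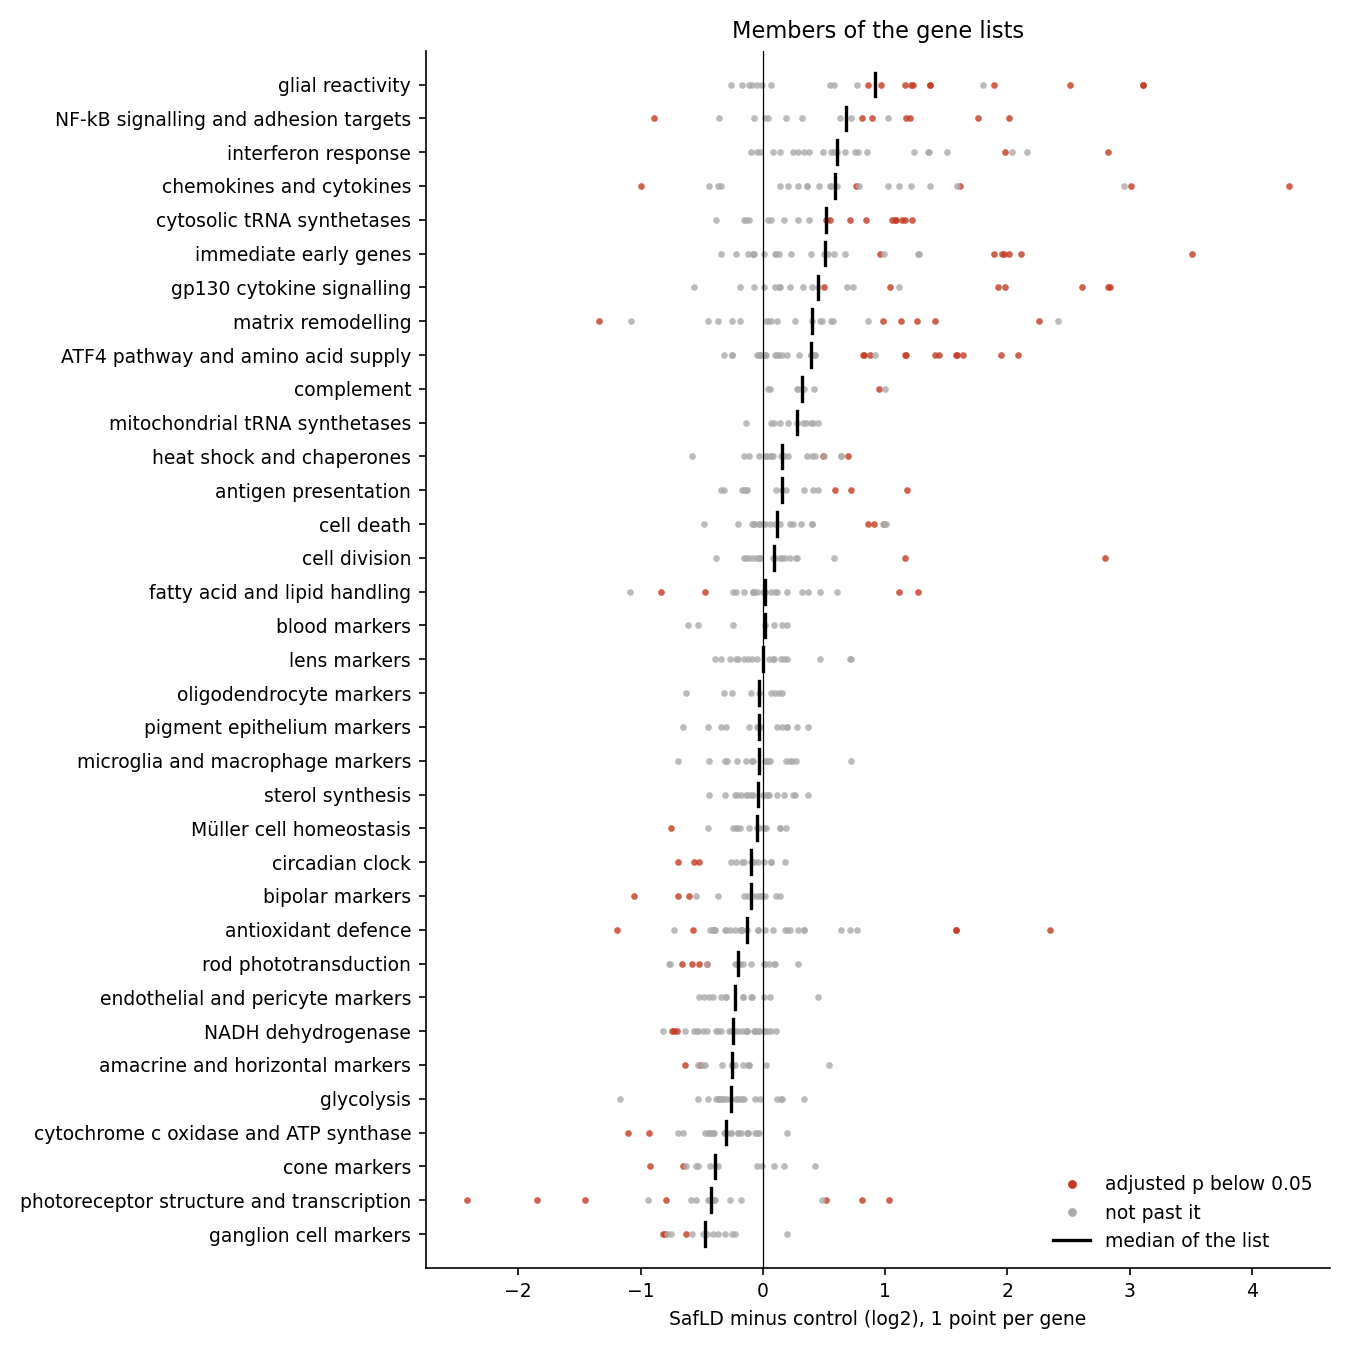
Difference between SafLD and control (log2, x axis) for each measured member of 35 gene lists, ordered by the median of the list (black bar); red points passed an adjusted p below 0.05 and grey points did not. Medians run from -0.47 for ganglion cell markers to 0.92 for glial reactivity, and marker lists of lens, blood, microglia, pigment epithelium and vessels hold no red point.

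Markers of other tissues that a dissected retina can carry were followed as whole lists. None of the 18 lens, 14 pigment epithelium, 7 blood, 14 endothelial and pericyte or 9 oligodendrocyte genes rose or fell (limma, from 0 to 1 higher and from 0 to 5 lower in a list at an unadjusted p below 0.05). Summed lens levels ran from 15.50 to 15.74 in control and from 15.16 to 15.98 in SafLD, and those of the pigment epithelium from 11.01 to 11.48 and from 11.04 to 11.74. The pigment epithelium gene Krt8 differed by -0.45 and the blood genes Hbb, a hemoglobin chain, and Ahsp by -0.53 and -0.24, without passing. Summed vessel levels ran from 11.80 to 12.06 in control and from 11.74 to 11.85 in SafLD, with a list median of -0.23. Among vessel genes Cldn5, Tie1 and Tek differed by -0.52, -0.48 and -0.44 and Flt1 by 0.45, without passing. The summed oligodendrocyte level was 8.67 to 8.68 in SafLD, below the 8.86 to 8.93 of control, and Mbp, the myelin basic protein gene, differed by -0.63 ± 0.20 (adjusted p = 0.111). Defining markers differed in level: the lens crystallin gene Cryaa, which the retina also makes, lay between 13.21 and 13.57 on the 6 arrays. The microglial markers Aif1 and Cx3cr1 lay between 5.32 and 6.82. Cd68 and Itgam, also microglial, were dimmer, between 3.82 and 4.46 and between 4.49 and 4.78. On SafLD 1 the pigment gene Tyrp1 was at 9.86, against 6.74 and 6.80 on SafLD 2 and 3 and 7.29 to 8.34 in control. The part of these tissues in the differences above was not tested.

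The 86 lowered probe sets without a symbol had a median difference of -1.40, and 15 of them were lower by more than 2 log2 units, which among named probe sets was so for 1, that of Esrrb. The lowest, probe set 10862359, was at 9.91, 9.86 and 9.99 in control and at 7.85, 6.76 and 7.06 in SafLD, a fall of 2.70 ± 0.30 (adjusted p = 4.3e-05), or 6.48-fold. Probe sets 10855946, 10722459, 10722465 and 10722427 followed at -2.63, -2.54, -2.40 and -2.36. SafLD 1 was again the treated array closest to control for 70 of the 86. Of these 86, 45 lay in 1 run of probe set numbers, from 10722371 to 10722481, which holds 56 probe sets, none with a symbol. In that run 54 of 56 were below the control mean on all 3 SafLD arrays, with array medians of -0.97, -1.71 and -1.44. The fall was not particular to SafLD. The paper lists many probe sets of the run as lowered against control also in the group with photobiomodulation and light. It lists probe sets 10862359 and 10855946 in the same way. Values of that group are not given here. Probe sets of the run were not independent measurements, since the 45 lowered ones gave only 25 distinct sets of values over the arrays, with up to 10 probe sets sharing identical values. The 5 largest increases among called probe sets without a symbol were as follows. Probe set 10701345 rose by 2.25 ± 0.49 from 3.34, 5.01 and 5.34 to 6.76, 6.62 and 7.06. Probe sets 10701289, 10701578 and 10700194 rose by 2.12, 2.06 and 1.99. Probe set 10766724 rose by 1.99 ± 0.19, from 5.40, 5.85 and 5.09 to 7.21, 7.51 and 7.59. Of these 5, the lists in the paper hold 10766724 alone, and what the others measure was not tested.

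**Figure D5:**
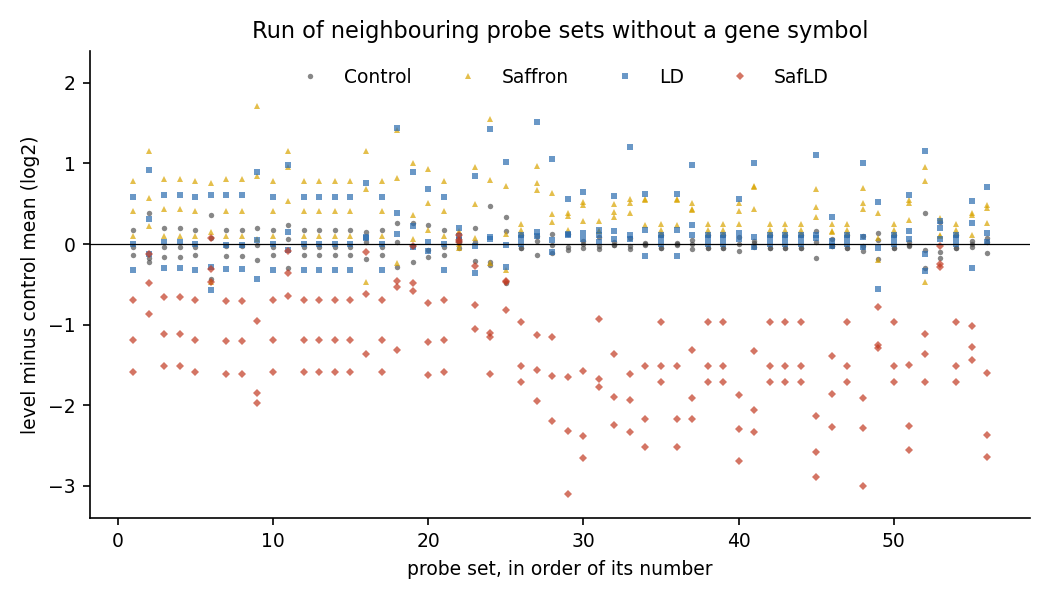
Level of the 56 neighbouring probe sets without a symbol on each array, minus the control mean of the same probe set (log2, y axis), in order of probe set number (x axis); colours and shapes mark the 4 groups, 3 arrays each. SafLD points lie below 0 for nearly all probe sets, down to -3.10, while LD and saffron points lie mainly at or above 0. The group with photobiomodulation and light, in which the paper also lists many of these probe sets as lowered, is not shown.

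SafLD was also tested against LD, the group given bright light and no saffron, on the same fit. As stated above, the labels of LD do not all give the same lux value. Whether the light was equal in both groups was not tested. In named genes little passed: no gene was higher or lower with an adjusted p below 0.05 and a fold change over 2 (limma; at an unadjusted p below 0.05 and the same fold change, 0 higher and 26 lower of 14506, and 0 and 0 by an adjusted t-test). Of the 26 lower at an unadjusted p, 5 were lens markers and 3 pigment epithelium markers. The lens list had a median of -0.84 in SafLD minus LD, with summed levels of 15.98, 15.47 and 15.16 in SafLD and 16.72, 15.40 and 16.59 in LD, and the pigment epithelium list a median of -0.31, with 11.74, 11.04 and 11.15 against 11.69, 11.30 and 11.92. LD 2 lay with the SafLD arrays in the lens sum, and the part of these tissues in the comparison with LD was not tested. At any fold, 4 genes were higher and 2 lower in SafLD than in LD, 0.0276% and 0.0138%. Pcdhb5, a protocadherin of neuronal contacts, was at 7.06, 7.32 and 7.05 in SafLD and at 6.08, 6.45 and 6.02 in LD (0.96 ± 0.16, adjusted p = 0.00926), and control lay with LD at 6.18, 6.41 and 6.23. Saffron alone, at 6.84, 7.08 and 7.27, lay with SafLD. Tma7 was at 11.18, 10.90 and 10.84 in SafLD, 11.57, 11.59 and 11.94 in LD and 12.13, 12.05 and 12.17 in control, and was lower in SafLD than in LD by 0.73 ± 0.15 (adjusted p = 0.0428). Dnai3, a dynein chain of cilia, was lower by 0.76 ± 0.15 (adjusted p = 0.0401). It was dim, at 3.80, 4.15 and 4.18 in SafLD and at 4.87, 4.66 and 4.87 in LD. Saffron alone, at 4.19, 4.16 and 4.26, lay nearer to SafLD than to LD. The genes Cldn24, Or13m2 and Or4e1, a claudin and 2 odorant receptors, were also dim and were higher by 0.63, 0.61 and 0.60.

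The differences of LD and of saffron alone from control are set beside those of SafLD here. All 3 comparisons share the control arrays, and the genes were chosen by their values in SafLD. Over the 104 raised probe sets the median difference from control was 1.43 in SafLD, 1.48 in LD and 0.09 in saffron. Of the 104, 52 had a smaller difference in SafLD than in LD. For single genes the differences from control in SafLD and LD were 4.30 and 5.26 for Ccl2, 3.01 and 4.16 for Ccl3, 2.82 and 3.75 for Gbp2, 3.11 and 3.27 for Gfap, and 1.98 and 2.03 for Stat3. Mthfd2, at 2.09 and 1.67, and Tnip2, at 2.01 and 1.67, went the other way. The LD arrays spread widely for Ccl2, at 9.13, 10.94 and 11.38. Directly compared, SafLD was lower than LD by 0.97 ± 0.84 for Ccl2 and by 1.14 ± 0.59 for Ccl3, short of the test (adjusted p = 0.76 and 0.561). Chst3 was 2.26 above control in SafLD, 1.36 in LD and 1.14 in saffron, and SafLD exceeded LD by 0.89 ± 0.21 (adjusted p = 0.0936). Among lowered genes Ppef1 was 1.85 below control in SafLD and 1.02 in LD, a direct difference of -0.84 ± 0.27 (adjusted p = 0.27).

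Probe sets without a symbol did differ from LD. Of 29214 probe sets, 71 (0.243%) were lower and 4 (0.0137%) higher in SafLD than in LD by more than 2-fold, none with exactly 1 symbol, and at any fold 14 (0.0479%) were higher and 76 (0.26%) lower. The 71 held 46 distinct sets of values, with up to 11 probe sets sharing identical ones. This comparison and that with control share the SafLD arrays. In the run described above, 43 of the 71 were found, and the median difference of the lowered probe sets of the run was -1.46 from LD and -1.40 from control, with LD 0.11 above control. Probe set 10862359 was at 10.03, 9.83 and 10.87 in LD, at 10.27, 10.83 and 10.24 in saffron and, as above, at 7.85, 6.76 and 7.06 in SafLD, 3.02 ± 0.30 below LD (adjusted p = 3.3e-05). Every SafLD array lay below all LD, saffron and control arrays. Probe sets 10855946 and 10722459 were 2.99 and 2.97 below LD. Of the 4 higher ones, probe set 10701578 differed from LD by 1.78 ± 0.35 (adjusted p = 0.0411), probe set 10700678 by 1.67 ± 0.30 and probe set 10851484 by 1.43 ± 0.27. Probe set 10701578 was dim, at 4.88, 4.53 and 4.92 in SafLD and at 2.80, 2.93 and 3.26 in LD. Leaving out 1 array moved the count of lower probe sets to 37 without SafLD 2, 42 without SafLD 3, 45 without LD 3 and 118 without LD 2, and that of higher ones to 1 without SafLD 2 or LD 3.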

How the data were processed

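Retinal RNA was hybridised to Affymetrix rat Gene 1.0 ST arrays. The deposited values are log2 expression levels, 1 per probe set and array, that the authors made by RMA (background correction, quantile normalization and probe set summary). The software was Affymetrix Expression Console 1.1.2800.19935, per the submitters' processing notes. For the genome build behind the probe sets, the sources used here give no name. RNA of some samples, which are not named, was treated with DNAse.

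All 18 arrays entered a linear model with 1 mean per group in limma (version 3.58.1, R 4.3.3), with moderated variances (12 residual and 5.05 prior degrees of freedom) and Benjamini-Hochberg adjustment over 29214 probe sets. A call needed an adjusted p below 0.05 and a fold change over 2. Symbols came from the platform annotation: 15310 probe sets had 1 symbol, 323 several and 13581 none, and a gene was represented by its brightest probe set. The number of arrays limits the precision, and p-values measure only the spread between these arrays. The fit was tested on simulated data.

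The genes named were the 15 largest called increases and decreases with groups that did not overlap, the 5 largest of each without a symbol, up to 3 at each end of every gene list, the genes of the RT-PCR assays and the 3 largest differences of each direction from LD. List members whose difference was smaller than its SE were mostly given as ranges, and a few genes beyond the rule were added after their values were seen. The comparison and the lists were chosen with earlier results of these data known. Promoters were read from RefSeq (GRCr8). Alternatives were other normalizations, filters, variance models, a t-test, a replicate block and leaving out each array.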

Additional observations from a re-analysis of the deposited data

How the results depend on the processing

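Between SafLD and control, 160 probe sets were called higher and 109 lower. Using the 2 groups alone, another variance model, other normalizations, a filter on dim probe sets or an unadjusted t-test left both counts within 1.5 times these. Array weights gave 250 higher, and no limit on fold gave 425 and 392. The methods' t-test, adjusted, gave 3 and 2. Testing only probe sets with 1 symbol, an alternative chosen after seeing the data, gave 24 lower, since the others were not tested. Leaving out 1 array gave from 85 to 162 higher and from 65 to 129 lower. Between SafLD and LD, 4 probe sets were higher and 71 lower. The 2 groups alone gave 11 and 37, array weights 34 and 127, no fold limit 14 higher, cyclic loess 2 higher, the unadjusted t-test 46 and 128, and both the adjusted t-test and the test of probe sets with 1 symbol 0 and 0. Leaving out 1 array gave from 1 to 5 higher and from 37 to 118 lower. Where no cause is named, the cause was not tested. With a replicate block the counts were 157 and 106 against control and 4 and 67 against LD. The numbers did not pair the arrays, since the correlations of same-numbered SafLD and control arrays were -0.185, 0.232 and -0.151. Of the 77 genes named and called, 52 kept their call whichever single array was left out, and 3 kept it under the adjusted t-test. None of the 77 changed sign in any alternative, all of which used the same arrays.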
